A study of Homo sapiens with 8 samples.

Results

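ESR1, which encodes estrogen receptor alpha, and PGR, which encodes the progesterone receptor, were followed across 8 RNA-seq libraries of BT474, an established line of human breast cancer cells that carries an ERBB2 amplification. The 2 genes were taken by symbol from a table of 26475 genes, and both were among the 14008 genes that passed the filter on low counts. Per the labels, 4 libraries were NPY1R high and 4 NPY1R low. NPY1R encodes the Y1 receptor for neuropeptide Y. All came from the same line and tissue label, about 500000 cells were seeded per well, and the labels name no drug for these libraries, although the wider study concerns cells that persist under lapatinib, an inhibitor of EGFR and ERBB2. How high and low cells were separated, and whether the medium held estrogen or a progestin, is not given in the sources used here. Nothing in the labels says that replicates came from separate cultures, so the p-values measure only the spread between these libraries, which may be technical.

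Estrogen receptor alpha and the progesterone receptor are nuclear receptors: proteins that bind a steroid hormone, pair up and act on DNA as transcription factors. In luminal breast cells PGR is a classical gene induced through estrogen receptor alpha, and its presence is read in the clinic as a sign that the estrogen receptor is active. NPY1R is also known as an estrogen-induced gene in breast cancer cells. Both receptors work with chaperones that hold the unbound receptor, with factors such as FOXA1 and GATA3 that open or share binding sites, and with coactivators and corepressors.

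Total counts ranged from 18025648 to 30609791 per library. Levels are given as CPM, counts per 1000000 of the scaled library size. All 10 listed luminal epithelial markers passed the filter, with a summed level of 4731 to 5411 CPM in NPY1R high against 4888 to 5729 in NPY1R low. Of these, GATA3 was higher in NPY1R high and EPCAM, FOXA1 and ELF3 were lower, where 5.78% of all tested genes were called higher and 7.81% lower, and the list's median log2 fold change was -0.14. Of 8 basal markers 3 passed the filter and KRT14 and CNN1 had 0 counts, with TP63 at 126 to 188 counts per library and a sum of 9.76 to 13.2 CPM in NPY1R high against 9.56 to 12.1 in NPY1R low. Of 8 fibroblast markers COL1A1 alone passed, at 266 to 496 counts, COL1A2, DCN and PDGFRB had 0 counts, and the sum was 10.9 to 17.5 CPM against 10.4 to 17.6. Of 8 leukocyte markers 2 passed, CD68 at 16 to 59 counts and LYZ at 9 to 32, CD3E, NKG7 and MS4A1 were among the 4 at 0 counts, and the sum was 1.43 to 2.27 CPM against 1.69 to 2.77. None of the tested basal, fibroblast and leukocyte markers passed the threshold between the groups, and 0 counts in a library allow up to 3. NPY1R, the gene that names the groups, had 699.2, 727.8, 1049 and 950.2 CPM in NPY1R high replicates 1 to 4 and 90.8, 94.9, 92.8 and 103.7 CPM in NPY1R low replicates 1 to 4, so every library matched its label. All 12 of 12 listed genes of the G2 and M phases were lower in NPY1R high past the threshold (11 to 12 over the alternatives), where 7.81% of all tested genes were, and their summed level was 1117 to 1404 CPM in NPY1R high against 2089 to 2214 in NPY1R low. The part of this difference in cell cycle genes in the results on the receptors was not tested. In such bulk samples, fewer cells of a kind and less RNA per cell cannot be told apart.

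The table of promoters held 6 annotated transcription starts for ESR1 and 3 for PGR, both found by symbol (RefSeq, GRCh38.p14). ESR1 lies at chr6:151656672-152129619 and PGR, on the minus strand, at chr11:101029624-101129813. The 250 bases before 3 of the ESR1 starts lie outside every exon of GENCODE release 29, and the 2 of these that hold a match to a motif, before starts 1 and 4, are printed whole. Of the windows that overlap an exon, 30 bases are printed around a match. Capitals mark matches to the motifs listed after the sequences.
ESR1 start 1, chr6:151656422-151656671, plus strand: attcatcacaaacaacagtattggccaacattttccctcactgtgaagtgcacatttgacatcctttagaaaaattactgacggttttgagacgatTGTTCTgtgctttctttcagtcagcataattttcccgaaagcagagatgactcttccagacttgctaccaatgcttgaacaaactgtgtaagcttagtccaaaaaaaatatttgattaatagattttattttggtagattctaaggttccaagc
ESR1 start 4, chr6:151806946-151807195, plus strand: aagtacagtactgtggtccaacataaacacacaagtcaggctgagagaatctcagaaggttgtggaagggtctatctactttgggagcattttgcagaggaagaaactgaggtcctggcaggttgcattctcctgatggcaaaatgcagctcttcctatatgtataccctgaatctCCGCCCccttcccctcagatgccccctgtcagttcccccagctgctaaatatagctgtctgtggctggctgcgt
ESR1 start 2, chr6:151690486-151690515, plus strand: tcctaatttcatGGTCAtaacagcctcctg
ESR1 start 5, chr6:151807446-151807475, plus strand: cctcgtgcgcccCCGCCCcctggccgtgaa
PGR start 2, chr11:101129216-101129245, minus strand: gcTGACCagcgCCGCCCtcccCCGCCCccg
PGR outermost start, chr11:101129845-101129874, minus strand: gggaggggctttGGGCGGggcctccctaga

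The motifs searched on both strands were the full palindromic estrogen response element, its single arm GGTCA, the palindromic element shared by the progesterone and glucocorticoid receptors, its single arm TGTTCT, the forkhead motif TGTTTAC, the GATA motif AGATAA, the GC box GGGCGG and the AP-1 motif TGANTCA, and a full element contains its arm. None of the 9 windows of ESR1 and PGR held either palindromic element, which were found in 0.0399% and 0.327% of 35116 promoter windows of 250 bases. The single arm GGTCA was found before 1 ESR1 start and before the 2 PGR starts inside the gene, whose windows overlap, and 32.6% of all windows hold it. At PGR this arm lies 166 to 162 bases before the start at 101129077, followed by 2 GC boxes within the 30 bases printed. The GC box was found in 42.6% of all windows, and the arm TGTTCT, found once before the outermost ESR1 start, in 12.4%. The forkhead, GATA and AP-1 motifs, in 2.98%, 9.17% and 6.57% of all windows, were found in none of the 9. These matches describe the letters only.

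Both receptors were higher in NPY1R high than in NPY1R low, PGR about 3-fold and ESR1 about 1.5-fold. ESR1 had 3119, 2854, 2763 and 1970 counts in NPY1R high replicates 1 to 4 and 2052, 2116, 1470 and 1784 counts in NPY1R low replicates 1 to 4. Scaled to library size, these were 107.1, 106.1, 99.98 and 108.5 CPM in NPY1R high against 68.9, 74.1, 67.3 and 70.1 in NPY1R low. The 4 NPY1R high libraries all lay above the 4 NPY1R low libraries, and the lowest NPY1R high value was 1.35 times the highest NPY1R low value. The mean rose from 70.1 ± 2.93 to 105.4 ± 3.76 CPM (SD, n = 4 each), which is a log2 fold change of 0.59 (SE 0.05, edgeR quasi-likelihood adjusted p = 7.23e-05). Leaving out each library in turn gave changes of 0.57 to 0.64.

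PGR counts, rounded, were 55892, 54697, 60877 and 45487 in NPY1R high against 16947, 17452, 16579 and 17838 in NPY1R low. Its scaled level was 1920, 2034, 2203 and 2505 CPM in NPY1R high against 568.7, 611.2, 758.6 and 700.6 in NPY1R low. The groups did not overlap here either, and the lowest NPY1R high value was 2.53 times the highest NPY1R low value. In both groups replicates 1 and 2 were lower than replicates 3 and 4. The log2 fold change was 1.71 (SE 0.11), a 3.28-fold rise (edgeR quasi-likelihood, adjusted p = 1.13e-05). The mean gain was 1505.6 CPM, and among all tested genes only the small nuclear RNA RN7SK, named here after its value was seen, gained more, by 2224 CPM with an adjusted p of 0.724 in the same test.

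Both were called at an adjusted p under 0.05, where 13.6% of all tested genes were called and 5.78% were called as higher in NPY1R high. Of the 1904 calls, 42.5% were higher in NPY1R high. This share was 49.8% with factors from DESeq2's median of ratios, 54.0% without factors and 56.3% with upper-quartile factors. With the other libraries as the TMM reference it was 49.5% to 53.1%, so the balance of higher and lower calls depended on that reference. Values without overlap between the groups were found for 20.2% of tested genes, and higher in NPY1R high for 8.77%. PGR, unlike ESR1, was called and at least 2-fold higher, as were 1.86% of tested genes. By size of rise ESR1 stood at place 746 and PGR at place 110 of 14008. Among the 2189 tested genes with a mean level of at least 100 CPM, PGR was at place 8.

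**Figure D1:**
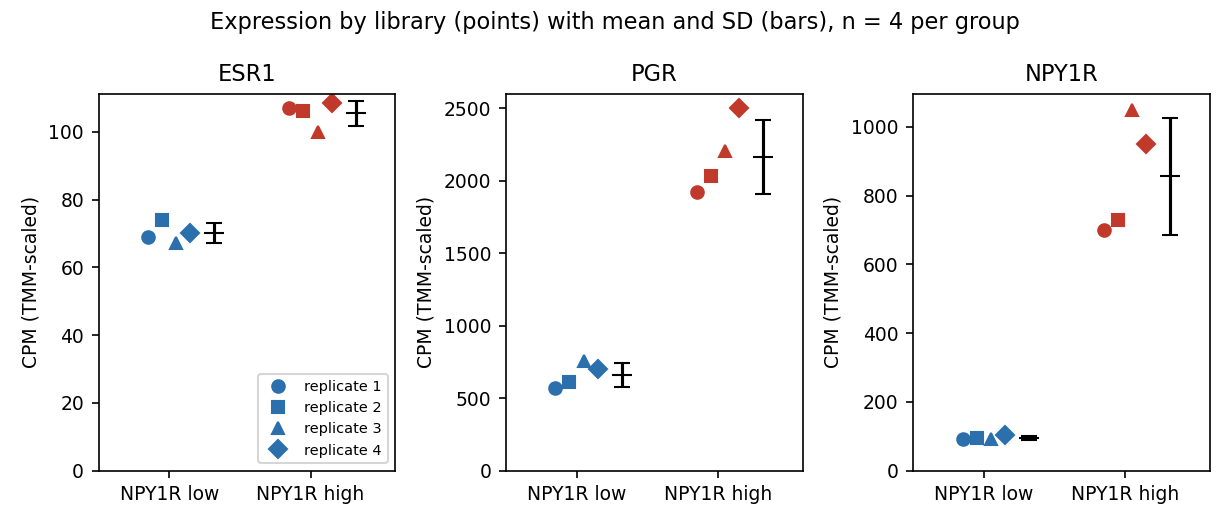
Expression of ESR1, PGR and NPY1R in each library, in CPM on a linear axis from 0, with NPY1R low in blue, NPY1R high in red, a symbol per replicate number, and the mean and SD of 4 libraries in black. For each gene the 4 NPY1R high libraries lie above the 4 NPY1R low libraries, and PGR ranges from 1920 to 2505 CPM in NPY1R high.

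The receptors did not rise in proportion. The ratio of PGR to ESR1 counts within a library, which no scaling changes, was 17.9, 19.2, 22.03 and 23.1 in NPY1R high replicates 1 to 4. It was 8.26, 8.25, 11.3 and 9.999 in NPY1R low replicates 1 to 4. Every NPY1R high library thus had more PGR per ESR1 count than any NPY1R low library. The log2 ratio was 4.35 ± 0.17 in NPY1R high and 3.23 ± 0.22 in NPY1R low (SD, n = 4 each), a difference of 1.13 or 2.18-fold. The exact two-sided permutation p was 0.0286, the smallest that 4 libraries against 4 allow.

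The size of both changes was much the same in replicates 1 and 2 as in replicates 3 and 4. Between replicates 1 and 2 of both groups PGR differed by a log2 of 1.74 and ESR1 by 0.58. Between replicates 3 and 4 PGR differed by 1.69 and ESR1 by 0.60. The labels give no batch, so these subsets, picked after seeing the data, are not a known batch. Libraries also differed in a trend of counts with the GC content of transcripts. Before that trend was removed, PGR deviated from its group mean by -0.17, -0.08, 0.03 and 0.22 (log2) in NPY1R high replicates 1 to 4 and by -0.21, -0.10, 0.21 and 0.10 in NPY1R low replicates 1 to 4. With it removed, the deviations were -0.13, -0.08, -0.02 and 0.23 and then -0.15, -0.06, 0.20 and 0.01, so that only NPY1R high replicate 4 and NPY1R low replicate 3 lay more than 0.02 above their group means, and the difference of the group means was 1.70 for PGR and 0.56 for ESR1.

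NPY1R moved with both receptors between the groups, and less clearly within them. The 8 libraries form 2 separate clusters of 4 by NPY1R, too few within a cluster to test a relation, so no correlation was computed. Within NPY1R high, replicates 3 and 4 had the higher NPY1R and also the higher PGR. With the GC trend removed this held less well. Replicate 3 then deviated from its group mean by 0.24 (log2) for NPY1R and by -0.02 for PGR, and replicate 4 by 0.20 and 0.23. For ESR1 the order was different, and NPY1R high replicate 3, with the highest NPY1R, had the lowest ESR1 of its group. Within NPY1R low, NPY1R ranged only from 90.8 to 103.7 CPM while PGR ranged from 568.7 to 758.6 CPM, and the library with the highest PGR, replicate 3, was not the one with the highest NPY1R. There were 0.36 to 0.48 NPY1R counts per PGR count in NPY1R high and 0.12 to 0.16 in NPY1R low, so NPY1R differed more than PGR did. The groups are named by NPY1R level, so a large difference in NPY1R was given by the grouping.

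**Figure D2:**
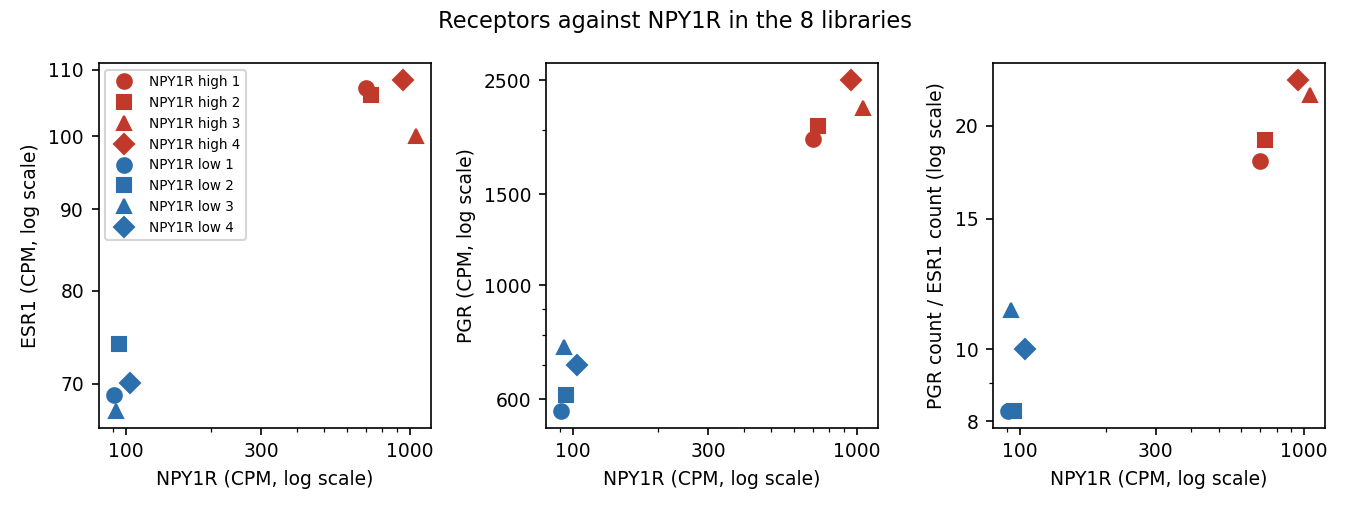
ESR1, PGR and the ratio of PGR to ESR1 counts against NPY1R in the 8 libraries, all on log axes, with NPY1R low in blue, NPY1R high in red and a symbol per replicate number. The libraries form 2 clusters, and in the left panel NPY1R high replicate 3 combines the highest NPY1R with the lowest ESR1 of the red points.

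Levels of different genes were compared per kilobase of the longest basic transcript of GENCODE release 29, which is 6466 nucleotides for ESR1 and 13748 for PGR. On this scale ESR1 had 16.3 ± 0.58 CPM per kilobase in NPY1R high and 10.8 ± 0.45 in NPY1R low, and PGR had 157.5 ± 18.5 and 47.99 ± 6.24 (SD, n = 4 each). PGR exceeded ESR1 8.43- to 10.9-fold per kilobase in the NPY1R high libraries and 3.88- to 5.30-fold in the NPY1R low libraries. NPY1R, at 282.8 ± 56.3 CPM per kilobase, stood above PGR in NPY1R high and, at 31.5 ± 1.87, below it in NPY1R low. The deposited counts do not say which transcripts were present. With the median instead of the longest transcript length, PGR exceeded ESR1 27.9- to 36.0-fold in NPY1R high and 12.8- to 17.6-fold in NPY1R low, and PGR stood above NPY1R over the 8 libraries, at 501.6 against 235.3 CPM per kilobase.

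Over the 8 libraries, PGR had the place 42 by mean CPM without regard to length among 26475 genes, and ESR1 the place 2557. By library, PGR was at places 15 to 23 in NPY1R high and 120 to 193 in NPY1R low. ESR1 was at places 1948 to 2148 in NPY1R high and 3124 to 3341 in NPY1R low. Per kilobase of the longest transcript, PGR was at place 510 and ESR1 at place 4484 of 18489 genes with a length and a count, and with the median transcript length at places 120 and 4089.

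The receptors differed in how much they varied between libraries of the same group. The coefficient of variation of ESR1 was 3.57% in NPY1R high and 4.17% in NPY1R low, where counting error alone would give 2.0% and 2.35%. Of tested genes within 1.5-fold of its level, 20.7% and 20.4% had a lower coefficient of variation, and their median was 5.96% and 6.87%. PGR varied by 11.7% in NPY1R high and 13.0% in NPY1R low, against a counting error of 0.43% and 0.76%. The 24 and 234 tested genes within 1.5-fold of its level had medians of 6.05% and 6.68%, and 83.3% and 90.6% of them varied less than PGR. Because reads without molecular identifiers can be copies of one molecule, these counting errors are lower limits.

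The genes with the profiles nearest to each receptor were found by the root mean square difference of log2 CPM, centred on each gene's own mean, over the 8 libraries, among tested genes with a mean of at least 5 CPM. For ESR1 they included SMYD3, a methyltransferase, CRIM1, a membrane protein that binds BMPs, PARP4 and TMEM164, at differences of 0.05 to 0.07, where the median of 10441 genes was 0.35. Their log2 fold changes were 0.55 to 0.63, and TMEM164 rose from 86.6 ± 3.02 to 133.8 ± 7.52 CPM (SD, n = 4 each). For PGR the nearest were COL12A1, a collagen, at a difference of 0.08, ADGRL2, an adhesion receptor, at 0.09, TENM4, a teneurin, at 0.14, THBS1, thrombospondin 1, at 0.18, and CST1, a secreted protease inhibitor, at 0.19, against a median of 0.90. COL12A1 rose from 319.6 ± 51.4 to 1133.3 ± 144.1 CPM (SD, n = 4 each), which is a log2 fold change of 1.83 (SE 0.13). Like PGR, COL12A1 was higher in replicates 3 and 4 than in replicates 1 and 2 of each group, at 1109.6 and 1339.2 against 1005.5 and 1078.8 CPM in NPY1R high and 362.1 and 366.2 against 274.7 and 275.5 CPM in NPY1R low. The nearest genes were chosen by likeness over these same libraries, so shared replicate patterns and like fold changes follow from that choice. ESR1 stood at place 203 in likeness to PGR, and NPY1R at place 615, with differences of 0.59 and 0.73. In likeness to ESR1, PGR stood at place 9947 and NPY1R at place 10422 of 10441, with differences of 0.59 and 1.29, both above the median of 0.35. This measure is not scaled to the size of the change. A gene with a larger change in the same direction, as PGR and NPY1R had beside ESR1, therefore ranks as unlike.

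The 3 tested genes that lie nearest before ESR1 on chromosome 6 also rose, and the 4 nearest after it did not pass the threshold. The 2 sides differed in distance. The 3 that rose lay 35.5 to 205 kilobases from ESR1. After ESR1 only SYNE1, which overlaps it, lay as near, and FBXO5, MTRF1L and IPCEF1 lay 841, 858 and 2025 kilobases away. CCDC170, whose end lies 35.5 kilobases before ESR1, had 23.98, 25.3, 30.03 and 26.9 CPM in NPY1R high against 16.3, 16.0, 17.7 and 17.0 in NPY1R low. ARMT1, a protein methyltransferase gene, had 290.9, 305.1, 348.1 and 296.7 CPM in NPY1R high against 205.5, 230.9, 213.8 and 230.3 in NPY1R low. RMND1, a gene needed for mitochondrial translation, had 56.4, 55.96, 70.3 and 63.9 CPM in NPY1R high against 42.3, 42.6, 42.7 and 45.8 in NPY1R low. In none of the 3 did the groups overlap, and NPY1R high replicate 3 was the highest library for each, whereas it was the lowest NPY1R high library for ESR1. The log2 fold changes were 0.66 (SE 0.09) for CCDC170, 0.50 (SE 0.07) for ARMT1 and 0.51 (SE 0.08) for RMND1, with adjusted p of 0.000807, 0.00107 and 0.00235 in edgeR's quasi-likelihood test.

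Thus 3 of the 8 nearest tested genes, 4 on each side, passed the threshold as higher, where 5.78% of all tested genes did. ZBTB2, the next gene outward, had a log2 fold change of 0.17 (SE 0.06), and its adjusted p, 0.112, ranged from 0.0191 to 0.258 over the alternatives. SYNE1, which overlaps the end of ESR1 in the RefSeq annotation, had 37.1 ± 2.81 and 35.7 ± 2.41 CPM in NPY1R high and low (SD, n = 4 each) and an adjusted p of 0.729 in the same test. The other 3, FBXO5, MTRF1L and IPCEF1, had log2 fold changes of -0.14, -0.07 and 0.15, and for IPCEF1, at under 1 CPM, the sign changed when NPY1R low replicate 1 was left out. Around PGR on chromosome 11, 0 of 8 tested neighbours passed by edgeR's test or by limma, and 1 passed by DESeq2, while 3 had an unadjusted p under 0.05 by edgeR. The log2 fold changes of the 8 ran from -0.05 for CEP126 to 0.70 for TRPC6, a cation channel, and all were smaller than that of PGR. Most of these 8 lay far from PGR. ARHGAP42 and TMEM133 lay 35.7 kilobases away and TRPC6 322. CEP126, YAP1 and BIRC3 lay 785 to 1188 kilobases away, and JRKL and CCDC82 4636 and 4640. The median change of these 8 was 0.22, beside 0.16 for the 8 neighbours of ESR1 and -0.03 for all tested genes. ARHGAP42, whose end lies 35.7 kilobases from PGR, had a change of 0.24 (SE 0.07) and an adjusted p of 0.0632, and it passed under 13 of 27 alternatives. CCDC82, at 0.63 (SE 0.20) with an adjusted p of 0.0705, and TRPC6, with 0.0818, each passed under 5. The mean levels of CCDC82 and TRPC6 were low, at 1.82 and 2.77 CPM in NPY1R high and 1.18 and 1.71 CPM in NPY1R low. TMEM133 has the same position as ARHGAP42 in the annotation used, so these 2 symbols are not independent. PGR counts, such as 55891.82 in NPY1R high replicate 1, were not whole numbers in any library (tolerance 0.005), whereas those of ESR1 were whole in all 8, and the antisense gene PGR-AS1 overlaps the start of PGR in RefSeq. The library kit marks strand per the labels, but whether the counting used it is not given in the sources used here.

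**Figure D3:**
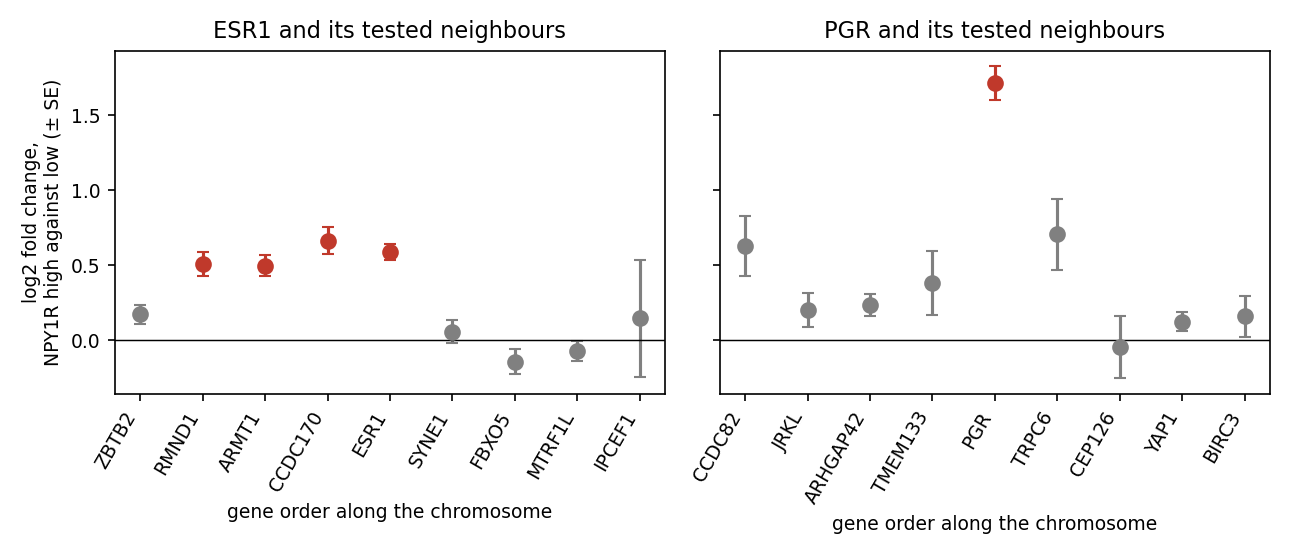
Log2 fold change of NPY1R high against low, with its SE, for ESR1, PGR and the 4 nearest tested genes on each side in chromosome order, with genes at an adjusted p under 0.05 in red. The 3 red genes left of ESR1 lie between 0.50 and 0.66, beside 0.59 for ESR1, while PGR at 1.71 stands alone in red among its neighbours. The median change of the 8 neighbours is 0.16 at ESR1 and 0.22 at PGR. Positions show order only, and neighbours lie up to 2025 kilobases from ESR1 and up to 4640 kilobases from PGR.

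The other genes that work with the receptors, or are known to respond to them, were examined in 9 lists of 126 genes, of which 111 were tested. In NPY1R high, 18 of them were higher and 10 lower, where 5.78% of all tested genes were higher and 7.81% lower. Over the alternatives 16 to 23 were higher and 5 to 23 lower, so the number that fell depended on the scaling and on terms in the model. The median log2 fold change was 0.00 over the 111 genes and -0.03 over all tested genes.

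Among the other receptors for steroids, 1 of 9 tested was higher and 1 lower, where 5.78% of all tested genes were higher and 7.81% lower. NR3C1, the glucocorticoid receptor, fell from 30.8 ± 4.25 to 21.8 ± 0.90 CPM (SD, n = 4 each), a change of -0.50 (SE 0.10, edgeR quasi-likelihood adjusted p = 0.00831). ESR2, which encodes estrogen receptor beta, was close to the detection limit, at 5 to 25 counts per library, and its sign changed with the library left out. GPER1, a membrane receptor for estrogen, had 6.79 ± 2.69 CPM in NPY1R high against 3.46 ± 1.83 in NPY1R low (SD, n = 4 each), and replicates 1 and 2 were above 3 and 4 in both groups. Its adjusted p was 0.169, and it passed under 4 of 27 alternatives. These 4 had a replicate block, a term for replicates 1 and 2 against 3 and 4, a GC offset, or a GC offset with replicate block. NR3C2, the mineralocorticoid receptor, the estrogen-related receptors ESRRA and ESRRG, and the progesterone-binding membrane proteins PGRMC1 and PGRMC2 did not pass, with changes of 0.27, 0.03, 0.25, -0.14 and 0.05, and the sign for ESRRA changed when NPY1R high replicate 1 or NPY1R low replicate 4 was left out. ESRRB, at up to 14 counts per library, was not tested.

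Of the proteins that hold or modify the receptors few differed, where 13.6% of all tested genes did, 5.78% higher and 7.81% lower. None of 10 tested chaperones passed (HSPA8, the most abundant, at 3191 ± 186.2 and 3379 ± 163.4 CPM in NPY1R high and low), nor any of 12 corepressors or 9 genes of receptor turnover, where TBL1XR1, a corepressor subunit, had a change of -0.19 and UBE3A, a ubiquitin ligase, of -0.15. By edgeR's test 1 chaperone, 1 corepressor and 2 turnover genes had an unadjusted p under 0.05, and DESeq2 and limma called 0 in each of these lists. The chaperones had 0 to 2 members lower over the alternatives, the corepressors 0 to 3 and the turnover genes 0 to 1. Of 14 coactivators 1 was lower, NCOA3, with a change of -0.28 (SE 0.07) and an adjusted p of 0.0244 that was lost under 19 of 27 alternatives. The most abundant coactivator, MED1, was at 1425 ± 65.9 and 1496 ± 83.9 CPM in NPY1R high and low. Among 9 cooperating factors 1 was higher and 3 were lower, with a median log2 fold change of -0.23. GATA3, a luminal transcription factor, rose from 24.6 ± 3.18 to 37.2 ± 4.13 CPM, a log2 fold change of 0.60 (SE 0.11) and close to the 0.59 of ESR1. TLE3, a corepressor that binds FOXA1, fell by 0.55 (SE 0.12), the pioneer factor FOXA1 by 0.23 (SE 0.05) and XBP1 by 0.34 (SE 0.09). The call of FOXA1 was lost under 3 of 27 alternatives and that of XBP1 under 18.

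Of 9 tested enzymes that make or inactivate steroid hormones, 2 were higher and 2 lower, where 5.78% of all tested genes were higher and 7.81% lower. The list's median log2 fold change was -0.23. STS, steroid sulfatase, which frees estrogen precursors from their sulfate, rose from 93.6 ± 16.3 to 155.5 ± 14.02 CPM (SD, n = 4 each), which is a log2 fold change of 0.73 (SE 0.12, edgeR quasi-likelihood adjusted p = 0.00244). HSD17B1, which reduces estrone to estradiol, rose by 0.45 (SE 0.12), and its call was lost under 5 of 27 alternatives. SRD5A1, a steroid reductase, fell by 0.51 (SE 0.09), and HSD17B12, which also acts in fatty acid elongation, fell by 0.29 (SE 0.05). CYP19A1, the aromatase that makes estrogen, and HSD3B1, AKR1C1 and AKR1C2 had 0 counts over the 8 libraries.

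Genes known to be induced through the estrogen receptor, PGR and NPY1R themselves left out, had 13 members higher and 2 lower of 27 tested. Of all tested genes 5.78% were higher and 7.81% lower. The list's median log2 fold change was 0.42, beside -0.03 for all tested genes. Over the alternatives 12 to 15 were higher and 1 to 3 lower. PDZK1, a scaffold protein, rose from 0.63 ± 0.36 to 4.04 ± 2.33 CPM, BCL2, an inhibitor of cell death, from 17.4 ± 1.74 to 50.5 ± 6.11 CPM, CXCL12, a chemokine, from 13.5 ± 1.12 to 34.2 ± 6.09 CPM, and SUSD3 from 14.5 ± 1.45 to 32.2 ± 7.20 CPM (SD, n = 4 each). PDZK1 had few counts, at 15, 6, 23 and 19 in NPY1R low replicates 1 to 4 and 65, 51, 182 and 99 in NPY1R high. The 2 members that were lower were RET, a receptor tyrosine kinase, and PRSS23, a serine protease, both also chosen after their values were seen, with changes of -0.49 and -0.47. STC2, a secreted glycoprotein, rose by a log2 of 0.99 (SE 0.08) and CA12, a carbonic anhydrase, by 0.69 (SE 0.07). Not all followed: TFF1, a familiar estrogen-induced gene chosen after its values were seen, was at 209.0 ± 21.8 and 187.7 ± 53.1 CPM in NPY1R high and low with an adjusted p of 0.686, and KRT19, the most abundant of the list, at 854.9 ± 86.7 and 929.2 ± 232.2 CPM (adjusted p 0.722). The list overlaps genes that earlier results on these libraries had already named, so its direction is a description.

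Of 12 tested genes known to be induced through the progesterone receptor, 1 was higher and 1 lower, with a median log2 fold change of 0.05. Of all tested genes 5.78% were higher and 7.81% lower. SGK1, a kinase, rose by 0.52 (SE 0.15) and PDK4, a kinase of pyruvate metabolism, fell by 0.84 (SE 0.24), from 2.40 ± 0.35 to 1.35 ± 0.44 CPM. These calls were lost under 9 and 17 of 27 alternatives. TSC22D3, the most abundant of the list, was at 56.9 ± 4.64 and 67.8 ± 4.38 CPM in NPY1R high and low (edgeR quasi-likelihood, adjusted p = 0.0511). ID4, chosen after its values were seen, had 30.7 ± 18.3 and 9.27 ± 5.55 CPM with an adjusted p of 0.0520 in the same test. FKBP5, a chaperone and familiar progestin-induced gene, had at most 13 counts in a library and was not tested, and TNFSF11 had 0 counts over the 8 libraries. Whether this list differs from the estrogen-induced one was not tested.

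**Figure D4:**
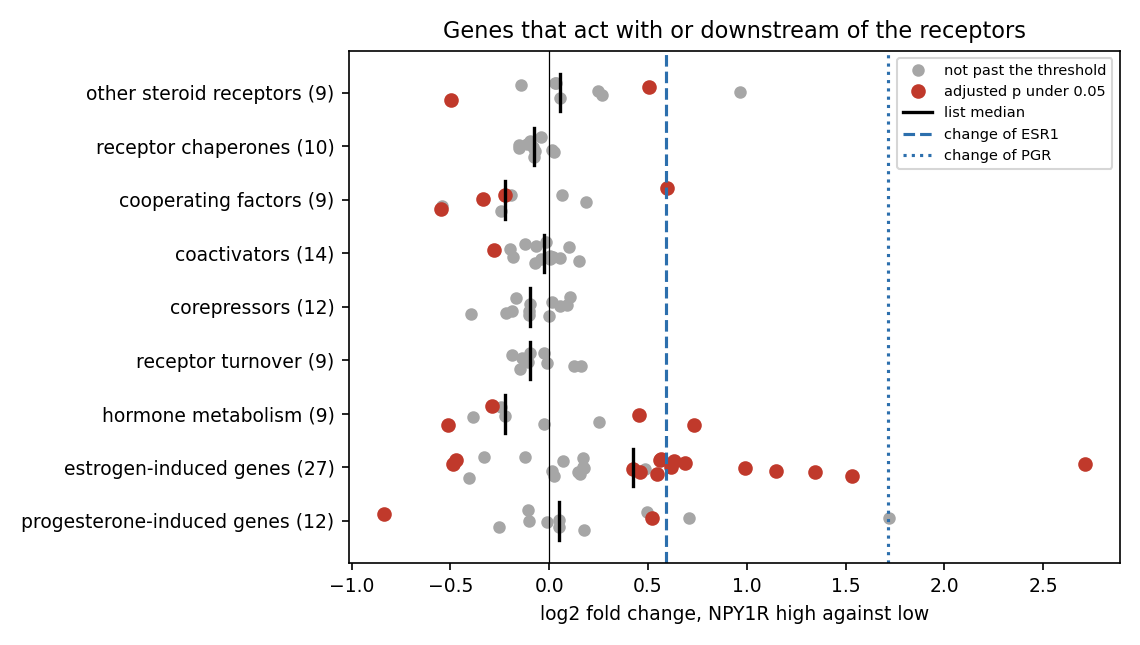
Log2 fold change of NPY1R high against low for each tested gene of the 9 lists, with genes at an adjusted p under 0.05 in red, other genes in grey, list medians as black bars and the changes of ESR1 and PGR as dashed and dotted lines. List medians run from -0.23, for both the cooperating factors and hormone metabolism, to 0.42 for the estrogen-induced genes. The estrogen-induced genes have 13 red points to the right of 0 and 2 to the left.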

How the data were processed

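RNA-seq libraries of 4 NPY1R high and 4 NPY1R low BT474 samples were prepared from 200 ng of RNA with a stranded kit, per the labels' protocols. The values are expected counts for each gene symbol, which the authors estimated from their reads and deposited without scaling. The submitters' processing notes name STAR 2.5.2, RSEM 1.3.0 and hg38. Between 7.97% and 8.76% of values in a library were not whole, so counts were rounded. This departs from the planned test only in the rounding. Per-sample tables held the same values as the series table, with 0 differing. Replicates differed by more than sampling noise, with chi-square per degree of freedom of 6.00 to 66.4 over 12 pairs.

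Genes were filtered with filterByExpr (minimum count 10), scaled by TMM and tested with edgeR 4.0.16 (R 4.3.3) by the quasi-likelihood test, with Benjamini-Hochberg adjustment over 14008 genes and a threshold of 0.05. TMM used NPY1R low replicate 4 as its reference. Log2 CPM used a prior count of 2. The ratio of PGR to ESR1 was compared by an exact permutation test. The alternatives were other scalings, filters, DESeq2 1.42.0, limma 3.58.1 (voom), a GC offset (GC known for 97.2% of tested genes), replicate terms and each library left out. Lengths came from GENCODE release 29, positions and promoters from RefSeq GRCh38.p14. Named genes were all tested steroid receptors, and in the other lists the members past the threshold, at most the 6 with the largest change, plus the member with the highest mean CPM. The 5 genes nearest in profile to each receptor and the 4 nearest tested genes on each side were also named, and some of these genes are not reported here. The members and lists were chosen with earlier results of these data known. Total counts of 18025648 to 30609791 per library set the counting precision.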

Additional observations from a re-analysis of the deposited data

Results flagged for a closer look

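In 3 of 122 sets of 4 libraries, 1 library stood apart from the other 3 by more than Dixon's critical value for the gap over the range, where chance would give about 6.1. HSD17B12 was at 186.7 CPM in NPY1R low replicate 4, with the other 3 at 167.3 to 170.1 CPM. RMND1, upstream of ESR1, was at 45.8 CPM in NPY1R low replicate 4, with the other 3 at 42.3 to 42.7 CPM. SMYD3, the gene nearest to ESR1 in profile, was at 18.7 CPM in NPY1R high replicate 1, with the other 3 at 17.3 to 17.4 CPM. Neither ESR1 nor PGR had such a library.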

How the results depend on the processing

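ESR1 and PGR were higher past the threshold under all 27 alternatives, with log2 fold changes of 0.56 to 0.64 and 1.68 to 1.79. Of 58 other named genes 32 were called, where 13.6% of all tested genes were. Many had been named because they passed the threshold or were near a receptor in profile, so this count follows partly from that choice. Of the 32 called, 26 kept the call under every alternative and 0 changed sign. The log2 difference between PGR and ESR1 was 1.07 to 1.22 with a library left out (exact permutation p 0.0571, the smallest 3 against 4 allow). Replicate numbers were not shown to pair libraries (same-number correlations 0.34, 0.16, 0.09 and 0.02). By this correlation NPY1R high replicates 1 and 2 were nearest to NPY1R low replicate 2. NPY1R high replicate 3 was nearest to NPY1R low replicate 4, and NPY1R high replicate 4 to NPY1R low replicate 3. Libraries of replicates 1 and 2, and of 3 and 4, thus resembled each other across the groups. With a replicate block the log2 difference between PGR and ESR1 was 1.13 (exact sign-flip p 0.125, the smallest possible), and 805 genes were higher and 1028 lower. Genes higher numbered 1355 with a GC offset and replicate block, and 624 to 1068 with a library left out. Genes lower numbered 1681 when replicates 1 and 2 were separated from 3 and 4 by a model term, 1807 with a GC offset, 2008 with both GC offset and replicate block, and 625 to 1064 with a library left out (710 without NPY1R high replicate 3, 625 without NPY1R high replicate 4, 678 without NPY1R low replicate 1). Pathway list genes lower numbered 6 with median-of-ratios factors, with 6 other TMM references, with no filter and with a filter of 1 CPM in 4 libraries, 5 with upper-quartile factors, 19 with the replicate term, 21 with the GC offset, 23 with GC offset and replicate block, and 6 to 10 with a library left out. Ranks moved to 4484 (ESR1) and 510 (PGR) per kilobase of the longest transcript and 4089 and 120 of the median one, and in NPY1R low libraries to 3334, 3341 and 3230 for ESR1 and 193, 159, 120 and 142 for PGR. Genes that changed sign, none of them called, were CEP126 (0.0084 with upper-quartile factors, and from -0.13 to 0.11 with a library left out, with 0.0015 without NPY1R high replicate 1), ESR2 (-0.21 without NPY1R high replicate 1 or NPY1R low replicate 3, up to 0.30 with another library left out), ESRRA (-0.04 without NPY1R high replicate 1, -0.084 without NPY1R low replicate 4, up to 0.15 with another library left out) and IPCEF1 (-0.090 without NPY1R low replicate 1, up to 0.41 with another library left out). The cause was not tested. ESR2, at 5 to 25 counts per library, had a change of 0.03 (SE 0.39), so its precision was low.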
